A study of Drosophila melanogaster with 12 samples.

Results

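The genes described here are 10 testis and sperm structure genes of Drosophila melanogaster, chosen by symbol: ocn, mia, dj, Mst84Da, Mst84Db, Mst84Dc, Mst84Dd, Mst87F, Mst98Ca and Mst98Cb. Each had 1 probe set annotated to that gene alone, so all 10 had values, and all 10 passed the filter on dim probe sets, among 10418 genes tested. RNA had been extracted from whole adult males of the wild-type strain Canton-S, which entered the experiment at 3 to 5 days of age and were kept in vials of a single sex. The groups were high-sugar diet for 4 weeks, control diet for 4 weeks, high-sugar diet for 2 days and control diet for 2 days, with 3 arrays each, 12 in all. Males fed for 4 weeks were 31 to 33 days old at sacrifice, and males fed for 2 days were 5 to 7 days old, so feeding time and age are the same comparison. The recipes of the diets and the number of flies per array are not given in the sources used here.

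Sperm of Drosophila are built in cysts of the testis. Spermatocytes transcribe most of the genes that sperm will need before meiosis, under the control of testis-specific partners of the general transcription machinery, and many of these messages are stored and translated only after meiosis, when the long sperm tail is assembled. mia (meiosis I arrest) encodes such a testis-specific homologue of a TBP-associated factor, and spermatocytes that lack it do not enter meiosis. Mst84Da, Mst84Db, Mst84Dc, Mst84Dd, Mst87F, Mst98Ca and Mst98Cb form a family of genes for small sperm tail proteins rich in repeats of cysteine, glycine and proline, and Mst87F is a standard case of a message held back from translation until after meiosis. dj (don juan) encodes a basic protein found along the mitochondrial derivatives of the sperm tail. ocn (ocnus) encodes a testis protein related to the products of janA and janB. In the RefSeq gene order, Mst84Da, Mst84Db, Mst84Dc and Mst84Dd follow each other with no other coding gene between them, Mst98Ca lies next to Mst98Cb, ocn next to janB, and dj next to djl.

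Values are the authors' probe set intensities on a linear scale, with array medians of 86.97 to 93.42. Pairs of arrays of the same group correlated at r of 0.984 to 0.993 (Pearson, over genes, which are not independent replicates). Intensities of 8 genes lay in the bright end of every array, between the 93.5th and the 99.3rd percentile of all probe sets on that array. mia lay between the 64.2nd and the 78.7th percentile. dj lay between the 45.5th and the 59.8th, at about the median probe set, although it is known as a strongly expressed testis gene. Detection calls are not stated, so whether the dj probe set measured its transcript above background cannot be said from these values. Brightness also depends on the probes, so the genes are not ranked by level. These whole-animal values cannot tell fewer spermatogenic cells from less RNA per cell.

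The 4 neighbouring Mst84D genes had lower intensities at 4 weeks than at 2 days. On high-sugar diet Mst84Da read 6905, 6633 and 6669 in the 3 arrays at 4 weeks, against 8914, 9867 and 8973 at 2 days. On control diet it read 6643, 7480.5 and 7584 at 4 weeks, against 9697, 9512 and 10110 at 2 days. No 4-week array reached any 2-day array for this gene. Mst84Db read 6298, 5756 and 5827 on high-sugar diet at 4 weeks, and 8551, 9114 and 8599 at 2 days. Its control arrays held 6485, 6405 and 7136 at 4 weeks, and 9715, 8909 and 9729 at 2 days. All 6 arrays of 4 weeks lay below all 6 of 2 days, and within 4 weeks every high-sugar array lay below every control array. Mst84Dc gave 6807, 6710 and 6587 on high-sugar diet at 4 weeks, against 9195, 9633 and 8234 at 2 days. The control diet gave 7495, 7399 and 8343 at 4 weeks, against 10168, 9356 and 10424 at 2 days. Its highest 4-week control array passed the lowest 2-day high-sugar array, but within each diet the times did not overlap. Mst84Dd had 3656, 2997 and 3057 on high-sugar diet at 4 weeks, against 4623, 5165 and 4821 at 2 days. Its control values were 3259.7, 3613 and 3923 at 4 weeks and 5292, 4564 and 4961 at 2 days. The times were separate again, while the diets overlapped at both times.

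The other members of the cysteine-glycine-proline family behaved alike. Mst87F read 5596, 5516 and 5128 on high-sugar diet at 4 weeks, against 6483, 7109 and 6872 at 2 days. On control diet its values were 5789, 6097 and 6331 at 4 weeks, against 6982, 6713 and 7204 at 2 days. The times did not overlap on either diet for Mst87F, and its 4-week high-sugar arrays all lay below its 4-week control arrays. Mst98Ca read 6812, 6258 and 6121 on high-sugar diet at 4 weeks, against 8797, 8744 and 7701 at 2 days. With control diet it had 6970.4, 6495 and 7147 at 4 weeks, against 9101, 8358 and 8732 at 2 days. For Mst98Ca the 2 times did not overlap on either diet and the 2 diets overlapped at both times. Mst98Cb read 3185, 2404 and 2327 on high-sugar diet at 4 weeks, against 3775, 3858 and 3251 at 2 days. On control diet it read 2851, 2537 and 2842 at 4 weeks, against 3896, 3808 and 3932 at 2 days. High-sugar array 1 of 4 weeks came close to the lowest 2-day array for this gene without reaching it.

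The ocnus gene ocn had the largest difference between times among the 8 bright genes on each diet. It read 5854, 5082.5 and 5747 on high-sugar diet at 4 weeks, and 8808, 9591 and 8705 at 2 days. Its control arrays read 5947, 6156 and 6177 at 4 weeks, and 9531, 9009 and 9598 at 2 days. The lowest 2-day value was 8705 and the highest 4-week value 6177, and at 4 weeks the high-sugar arrays lay below the control arrays.

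mia and dj did not share this pattern. mia read 426, 349 and 280.0 on high-sugar diet at 4 weeks, and 329, 259 and 212 at 2 days. On control diet mia read 479, 477 and 532 at 4 weeks, and 221, 357 and 225 at 2 days. The 3 control arrays of 4 weeks were the highest of the 12, and the other 3 groups overlapped each other. dj read 122, 76.1 and 62.9 on high-sugar diet at 4 weeks, against 101, 91.2 and 161 at 2 days. Its control arrays held 81.5, 102 and 67.9 at 4 weeks, against 89.3, 90.6 and 76.6 at 2 days. Within-group coefficients of variation for dj were 35.5%, 20.6%, 32.1% and 9.06% in the 4 groups in the order of the opening, while for Mst84Da they were 2.19%, 7.13%, 5.77% and 3.13%.

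**Figure D1:**
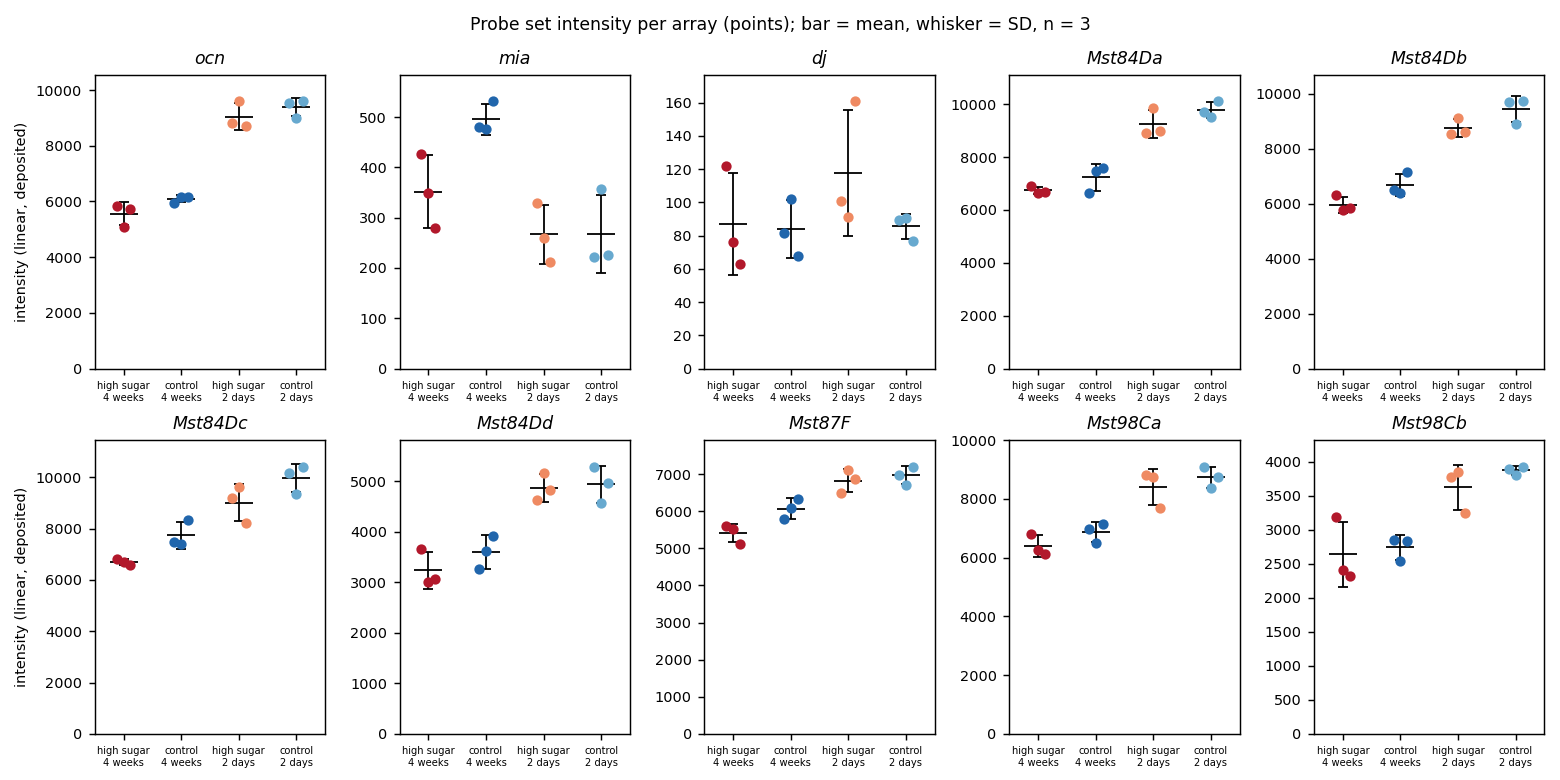
Intensity (linear scale, vertical axis from 0, a scale of its own per gene) of the 10 genes on each array, by group (high sugar 4 weeks, control 4 weeks, high sugar 2 days, control 2 days); points are arrays, the bar is the mean and the whisker the SD (n = 3). For 8 genes the 4-week points lie below the 2-day points of the same diet, whereas for mia the 4-week control points are highest and for dj the groups overlap apart from high sugar against control at 2 days.

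The comparison of 4 weeks with 2 days addressed the change with age and feeding time on each diet. On control diet 8 of the 10 genes fell and 1, mia, rose, by limma at an adjusted p under 0.05 over all genes tested, and dj did not pass. Of all genes, 18.8% were lower and 14.3% higher in this comparison. On high-sugar diet the same 8 genes fell, while mia and dj did not pass, where 22.7% of all genes were lower and 19.9% higher. Of all genes, 14.9% were lower and 10.1% higher on both diets. Arrays of the 2 times did not overlap for 9 genes on control diet, 8 lower and 1 higher, where 25.1% of all genes were lower and 20.3% higher without overlap. They did not overlap for 8 on high-sugar diet, all lower, where the shares of all genes were 26.5% lower and 28.6% higher. The median log2 fold change of the 10 genes was -0.40 on control diet and -0.45 on high-sugar diet, beside medians of -0.01 and 0.03 over all genes. The 2 comparisons share no arrays, but they share the estimate of spread.

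ocn fell to a mean intensity of 6093 ± 127 at 4 weeks on control diet, against 9380 ± 322 at 2 days (SD, n = 3 arrays each). Its log2 fold change of -0.62 (standard error 0.06, limma adjusted p = 4.13e-05) was a fall of 35.0%, with a 95% interval of -0.76 to -0.49. On high-sugar diet ocn averaged 5561 ± 418 at 4 weeks and 9035 ± 484 at 2 days (SD, n = 3 each), or -0.70 as log2 fold change (limma adjusted p = 1.78e-05). These were the largest falls of the group, and the smallest were those of Mst87F. Mst87F averaged 6072 ± 272 at 4 weeks and 6966 ± 246 at 2 days on control diet (SD, n = 3 each). Its log2 fold change there was -0.20 (95% interval -0.33 to -0.07, limma adjusted p = 0.0225). On high-sugar diet its log2 fold change was -0.33 (limma adjusted p = 0.000953). The intervals of ocn and Mst87F did not overlap on either diet.

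Within the Mst84D cluster the changes were close to each other. On control diet the log2 fold changes were -0.44 for Mst84Da, -0.50 for Mst84Db, -0.37 for Mst84Dc and -0.46 for Mst84Dd, falls of 26.1%, 29.4%, 22.4% and 27.2%. On high-sugar diet the log2 fold changes were -0.46 for Mst84Da, -0.56 for Mst84Db, -0.43 for Mst84Dc and -0.59 for Mst84Dd. Mst98Ca and Mst98Cb fell by 0.35 and 0.50 on the log2 scale on control diet, and by 0.39 and 0.47 on high-sugar diet. The limma adjusted p of these 6 genes was at most 0.00536 on control diet (Mst98Cb) and at most 0.00502 on high-sugar diet (Mst98Cb).

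mia was the only gene of the 10 that rose. It averaged 496 ± 30.9 at 4 weeks and 268 ± 77.3 at 2 days on control diet (SD, n = 3 each), and its log2 fold change was 0.93 (standard error 0.21, 95% interval 0.48 to 1.37, limma adjusted p = 0.00535). That was an increase of 89.9%. On high-sugar diet mia averaged 351 ± 72.9 at 4 weeks and 267 ± 58.8 at 2 days (SD, n = 3 each), and its log2 fold change was 0.40 (95% interval -0.04 to 0.84, limma adjusted p = 0.133). The difference between the 2 time effects was -0.52 (95% interval -1.15 to 0.10, limma adjusted p = 0.697), so the rise was not shown to depend on diet. dj had log2 fold changes of -0.04 on control diet (95% interval -0.58 to 0.49) and -0.45 on high-sugar diet (-0.99 to 0.09, limma adjusted p = 0.164). Without high-sugar array 1 of 4 weeks, dj passed on high-sugar diet (log2 fold change -0.72, limma adjusted p = 0.0285).

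**Figure D2:**
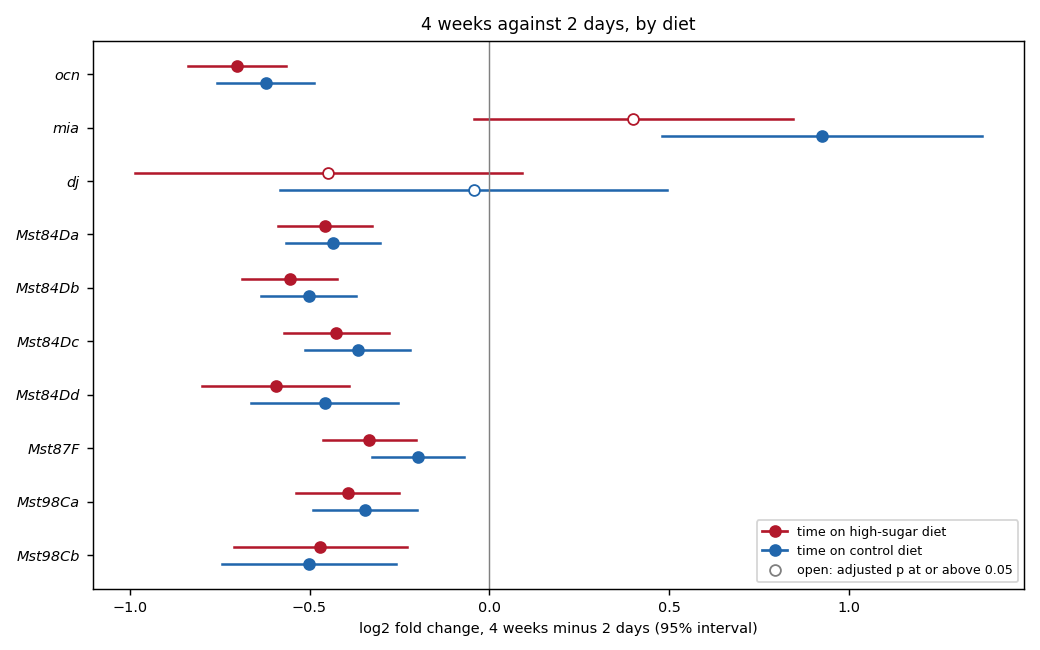
Log2 fold change (4 weeks minus 2 days) of each gene on high-sugar diet (red) and control diet (blue), with 95% intervals from the limma fit; filled points passed an adjusted p under 0.05. The 8 bright genes lie between -0.20 and -0.70 on both diets. The points of mia lie to the right of 0, but its interval on high-sugar diet spans 0, and the intervals of dj span 0 on both diets.

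The 98th percentile of intensity was 5787 to 5976 in high-sugar arrays and 6108 to 6179 in control arrays at 4 weeks, against 6272 to 6512.5 in high-sugar arrays and 6577 to 6856 in control arrays at 2 days. Of the 665 genes with a mean at least as high as that of Mst98Cb, the dimmest of the 8, 211 (31.7%) were lower and 87 higher on control diet, with a median log2 fold change of -0.07. On high-sugar diet 229 (34.4%) of them were lower and 151 higher, with a median of -0.03. Quantile normalization, which makes this upper end the same in all arrays, brought the median of the 10 genes to -0.22 on control diet and -0.34 on high-sugar diet. It ended the calls of Mst84Dc (log2 fold change -0.17, adjusted p = 0.0528), Mst87F (-0.07, adjusted p = 0.408) and Mst98Ca (-0.14, adjusted p = 0.0847) on control diet, so that 5 genes were lower there. It left 8 lower on high-sugar diet, where Mst84Da became -0.27, Mst84Dc -0.25, Mst87F -0.21 and Mst98Ca -0.22. On control diet Mst84Da became -0.26 and Mst84Db -0.33. The part of the upper end in the falls was not tested beyond this. The call of Mst87F on control diet was also lost without control array 1 or 3 of 2 days or control array 1 of 4 weeks, at an adjusted p up to 0.0885, and with a variance model without a trend (0.0798). The labels name no processing batch, and one that differed between feeding times could not be separated from time in this design.

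Accessory gland and muscle markers were mostly lower at 4 weeks. Ejaculatory duct and bulb markers and neuronal markers were lower or not called, with 0 higher, and gut and fat body markers were mixed. Of all genes, 18.8% were lower and 14.3% higher on control diet, and 22.7% were lower and 19.9% higher on high-sugar diet. Of 14 accessory gland genes measured of 16 listed, 12 were lower and 1 higher on control diet and 12 were lower and 2 higher on high-sugar diet. Their summed intensity was 62155 to 73824 in high-sugar arrays and 63915 to 78577 in control arrays at 4 weeks, against 108872 to 124120 in high-sugar arrays and 110790 to 120136 in control arrays at 2 days. Of 7 muscle genes measured of 9 listed, 7 were lower on control diet and 6 on high-sugar diet. Their sums were 11486 to 12622 on high-sugar diet and 8981 to 10692 on control diet at 4 weeks, against 19772 to 23928 on high-sugar diet and 18921 to 21058 on control diet at 2 days. Of 5 ejaculatory duct and bulb genes measured of 6 listed, 2 were lower on control diet and 3 on high-sugar diet, with sums of 39990.2 to 44029 on high-sugar diet and 38636 to 46549 on control diet at 4 weeks, against 52401 to 54168 on high-sugar diet and 51596 to 54191 on control diet at 2 days. Of 9 neuronal genes 3 were lower on control diet and 2 on high-sugar diet, with 0 higher and medians of -0.18 and -0.02. No marker of these 4 lists with a probe set of its own was left out as dim. Of 9 gut genes 1 was lower and 1 higher on control diet, and 3 were lower and 1 higher on high-sugar diet. Of 7 fat body genes 2 were lower and 1 higher on control diet, and 2 were lower and 2 higher on high-sugar diet, while Fbp1, Fbp2 and Yp2 were left out as dim. The part of these tissues in the falls of the testis genes was not tested.

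The comparison of high-sugar with control diet asked whether sugar feeding changed these genes. At 4 weeks 0 of the 10 genes passed by limma, while 0.806% of all genes were higher and 1.12% lower. An unadjusted limma p under 0.05 was reached by 4 of the 10 and by 2069 of the 10418 genes tested. Of the 10 log2 fold changes 9 were negative, with a median of -0.14 beside 0.01 over all genes. The groups did not overlap for ocn, mia, Mst84Db, Mst84Dc and Mst87F, each lower on high-sugar diet, where 9.79% of all genes were lower and 13.5% higher without overlap. Mst84Dc averaged 6701 ± 110 on high-sugar diet and 7746 ± 519 on control diet (SD, n = 3 each), or -0.21 as log2 fold change (95% interval -0.35 to -0.06, limma adjusted p = 0.133). Mst87F had a log2 fold change of -0.17 (limma adjusted p = 0.161), Mst84Db -0.16 (0.171) and ocn -0.13 (0.252). mia had the largest value, -0.52 (95% interval -0.96 to -0.07, limma adjusted p = 0.194). For the 8 bright genes the 95% intervals of the log2 fold change lay within -0.36 to 0.17. The upper end of the arrays, given above, was also lower in high-sugar arrays than in control arrays at each time. After quantile normalization the median of the 10 genes for diet at 4 weeks was -0.09. Summed gut markers were 44696 to 52881 in high-sugar arrays and 59813 to 68058 in control arrays at 4 weeks, with 3 of 9 lower. Summed neuronal markers were 5741 to 6129 on high-sugar diet and 4327 to 5106 on control diet, with 1 of 9 higher. The part of these tissues in the values of the sperm genes was not tested.

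At 2 days 0 of the 10 genes passed, while 0.144% of all genes were lower and 0% higher. An unadjusted limma p under 0.05 was reached by 1 of the 10 and by 866 of the 10418 genes tested. The 1 was Mst84Dc (log2 fold change -0.15, limma adjusted p = 0.594). The 8 bright genes lay between -0.15 and -0.02, and the 10 genes had a median of -0.05 beside 0.00 over all genes. After quantile normalization the signs of ocn (0.01), Mst84Dd (0.06), Mst87F (0.04) and Mst98Ca (0.02) turned. dj averaged 118 ± 37.8 on high-sugar diet and 85.5 ± 7.75 on control diet (SD, n = 3 each), or 0.42 as log2 fold change (95% interval -0.12 to 0.96, limma adjusted p = 0.718). Without high-sugar array 3 of 2 days, the log2 fold change of dj was 0.17 (limma adjusted p = 0.966). It was the only gene of the 10 whose diet groups did not overlap at 2 days, with a lowest high-sugar array of 91.2 and a highest control array of 90.6, where 6.58% of all genes were higher and 7.65% lower without overlap. mia had a log2 fold change of 0.01 (95% interval -0.43 to 0.45).

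**Figure D3:**
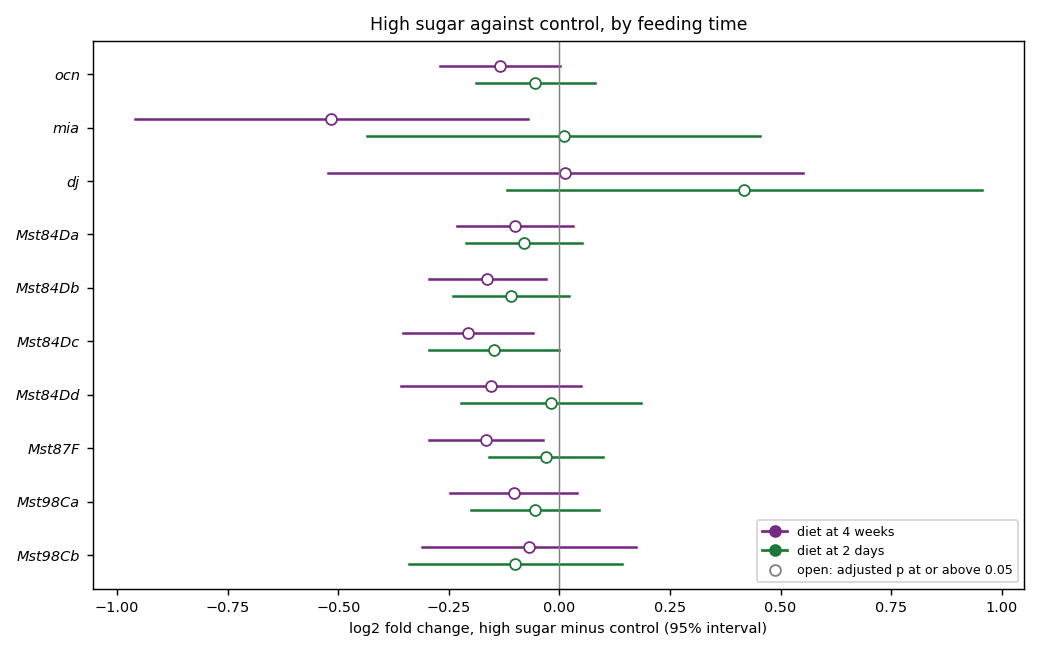
Log2 fold change (high sugar minus control) of each gene at 4 weeks (purple) and 2 days (green), with 95% intervals from the limma fit; all points are open because none passed an adjusted p under 0.05. The 8 bright genes lie between -0.21 and -0.02, and the intervals of mia and dj are wider than theirs.

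Averaged over both times, the diet effect was again called for 0 of the 10 genes, while 0.893% of all genes were higher and 1.73% lower. For this average, 3 of the 10 and 2057 of the 10418 genes tested had an unadjusted limma p under 0.05. The smallest limma adjusted p was that of Mst84Dc (log2 fold change -0.18, 95% interval -0.28 to -0.07, adjusted p = 0.0699), which passed after centring arrays on their medians (-0.18, adjusted p = 0.0413). The difference between the diet effects at 4 weeks and 2 days is also the difference between the time effects on the 2 diets. It was called for 0 of the 10 genes and 0% of all genes in either direction. An unadjusted limma p under 0.05 was reached by 0 of the 10 and by 757 of the 10418 genes tested. For the 8 bright genes this difference lay between -0.14 and 0.03.

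Within a group, the same array was often the highest or the lowest for most of the bright genes. High-sugar array 1 of 4 weeks was the highest of its group for 8 of the 8, by 0.10 on average over the group mean on the log2 scale, and by 0.29 for Mst98Cb. Control array 2 of 2 days was the lowest of its group for 8 of the 8, with a mean deviation of -0.07. Control array 3 of 4 weeks and high-sugar array 2 of 2 days were each the highest of their group for 7. mia and dj were also highest in high-sugar array 1 of 4 weeks, but both were highest in control array 2 of 2 days. The share of all genes highest or lowest in these arrays was not counted, so the pattern is not shown to be particular to the 8. The 8 were set apart from mia and dj after their values were seen. In the order of group means of the deposited intensities, all 8 ran from control at 2 days (highest) through high sugar at 2 days and control at 4 weeks to high sugar at 4 weeks (lowest). The 98th percentile of the arrays, given above, ran in the same order of groups. The 2 highest groups overlapped for each of the 8. The middle pair overlapped only for Mst84Dc, and the lowest pair overlapped for Mst84Da, Mst84Dd, Mst98Ca and Mst98Cb. After quantile normalization the sign of the diet difference at 2 days turned for ocn, Mst84Dd, Mst87F and Mst98Ca, so the order depends on the scaling.

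**Figure D4:**
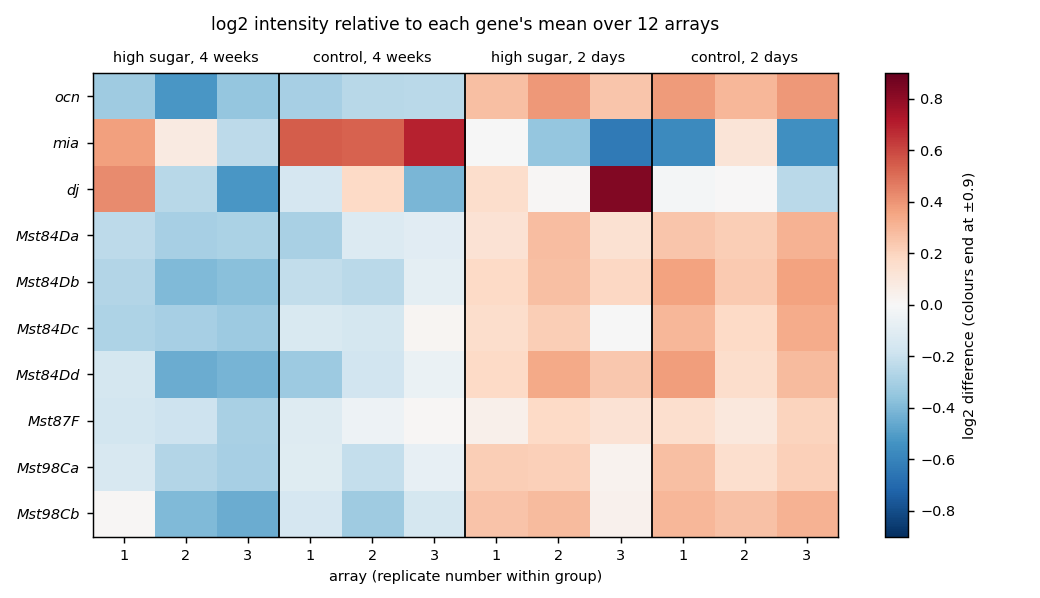
Log2 intensity of each gene on each of the 12 arrays relative to that gene's own mean (red above, blue below, colours end at 0.9 either way); columns are arrays grouped as high sugar 4 weeks, control 4 weeks, high sugar 2 days and control 2 days. The 8 bright genes are blue or near white at 4 weeks and red or near white at 2 days, the row of mia is reddest in the 4-week control arrays, and the reddest cell of dj is high-sugar array 3 of 2 days.

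Across the 12 arrays, the mean profile of the 10 genes correlated with the single genes at r of 0.91 to 0.96 for the 8 bright genes, 0.43 for dj and -0.43 for mia, each of which is part of that mean. The 8 other genes most like this profile, by Pearson's r of log2 intensity over 12 arrays in 4 groups, were Rsph3 (0.990), CG15452 (0.989), CG5050 (0.988), eIF4E7 (0.985), CG18336 (0.984), CatB (0.984), CG33170 (0.983) and Fpgs2 (0.983). All 12 arrays share the split by time, which any gene that falls with time also shows, so these r describe a pattern and carry no test. Rsph3, whose name is that of a radial spoke head protein of the axoneme, ranged from 387 to 833 in intensity. Its log2 fold changes with time were -0.55 on control diet and -0.81 on high-sugar diet (limma adjusted p = 0.00973 and 0.000729). eIF4E7, a member of the cap-binding translation initiation factor family, had -0.53 and -0.81. CatB, a catalase paralogue by name, had -0.44 and -0.86.

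Other genes of the sperm programme were taken from lists chosen by function, with earlier results of these data known. Their counts stand beside the 18.8% of all genes that were lower with time on control diet and the 22.7% on high-sugar diet. Of 17 other sperm tail and mitochondrial derivative genes measured of 27 listed, 12 were lower on control diet and 16 on high-sugar diet, with 0 higher on either and medians of -0.38 and -0.59. Among them, betaTub85D, the testis-specific beta-tubulin of the axoneme, had a log2 fold change of -0.35 on control diet and -0.35 on high-sugar diet. Pglym87, a phosphoglycerate mutase copy, had -0.83 and -0.99. fzo (fuzzy onions), which fuses mitochondria in spermatids, had -0.95 on high-sugar diet, and its control means were 174 at 4 weeks and 238 at 2 days. The neighbour of dj, djl, named after its values were seen, had -0.57 on control diet and -0.73 on high-sugar diet (limma adjusted p = 0.0103 and 0.00184), where dj had -0.04 and -0.45 and did not pass. The neighbour of ocn, janB, named in the same way, had -0.25 and -0.49 (limma adjusted p = 0.054 and 0.0015).

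Of 9 sperm chromatin protein genes, 4 were lower on control diet and 9 on high-sugar diet, with medians of -0.34 and -0.68. The protamine-like gene Mst35Ba had log2 fold changes of -0.34 on control diet and -0.56 on high-sugar diet. The transition protein gene Tpl94D had -0.97 on high-sugar diet, and its control means were 518 at 4 weeks and 730 at 2 days. Of 13 comet and cup genes, which are transcribed after meiosis in spermatids, 9 were lower on control diet and 11 on high-sugar diet, with medians of -0.41 and -0.70. In that list scpr-C had the lowest values, -1.75 on control diet and -1.09 on high-sugar diet. schuy had -0.95 on high-sugar diet, and its control means were 462 at 4 weeks and 691 at 2 days. For diet at 4 weeks 12 of the 13 were negative. The 1 positive gene was scpr-C, with a mean of 1030 on high-sugar diet and 677 on control diet. Of 12 meiotic arrest regulators other than mia, 2 were lower on control diet and 4 on high-sugar diet, with 0 higher and medians of -0.20 and -0.37. topi had -0.71 and -0.72. sa, another testis-specific TBP-associated factor homologue, had -0.72 on high-sugar diet and was not called on control diet. Its control means were 150 at 4 weeks and 182 at 2 days. mia had positive values on both diets. Of the 12 regulators, 2 were also positive on control diet (at most 0.18) and 1 on high-sugar diet (0.17). Of 10 early germline and cyst cell genes listed, 6 were measured, while bam and zpg were left out as dim. Of the 6, 1 was lower on control diet and 2 on high-sugar diet, with medians of 0.02 and -0.00. Their summed intensity was 403 to 456 in high-sugar arrays and 411 to 520 in control arrays at 4 weeks. At 2 days it was 430 to 518 in high-sugar arrays and 511 to 588 in control arrays. Group means were 218 to 328 for bgcn and 17.1 to 27.9 for tj, where the floor was 11.78. The medians of this list thus rest in part on dim probe sets. For diet at 4 weeks these lists had medians of -0.22, -0.27, -0.26, -0.19 and -0.08 in the order given, with 0 genes past the threshold, and the sperm structure genes themselves had -0.14.

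**Figure D5:**
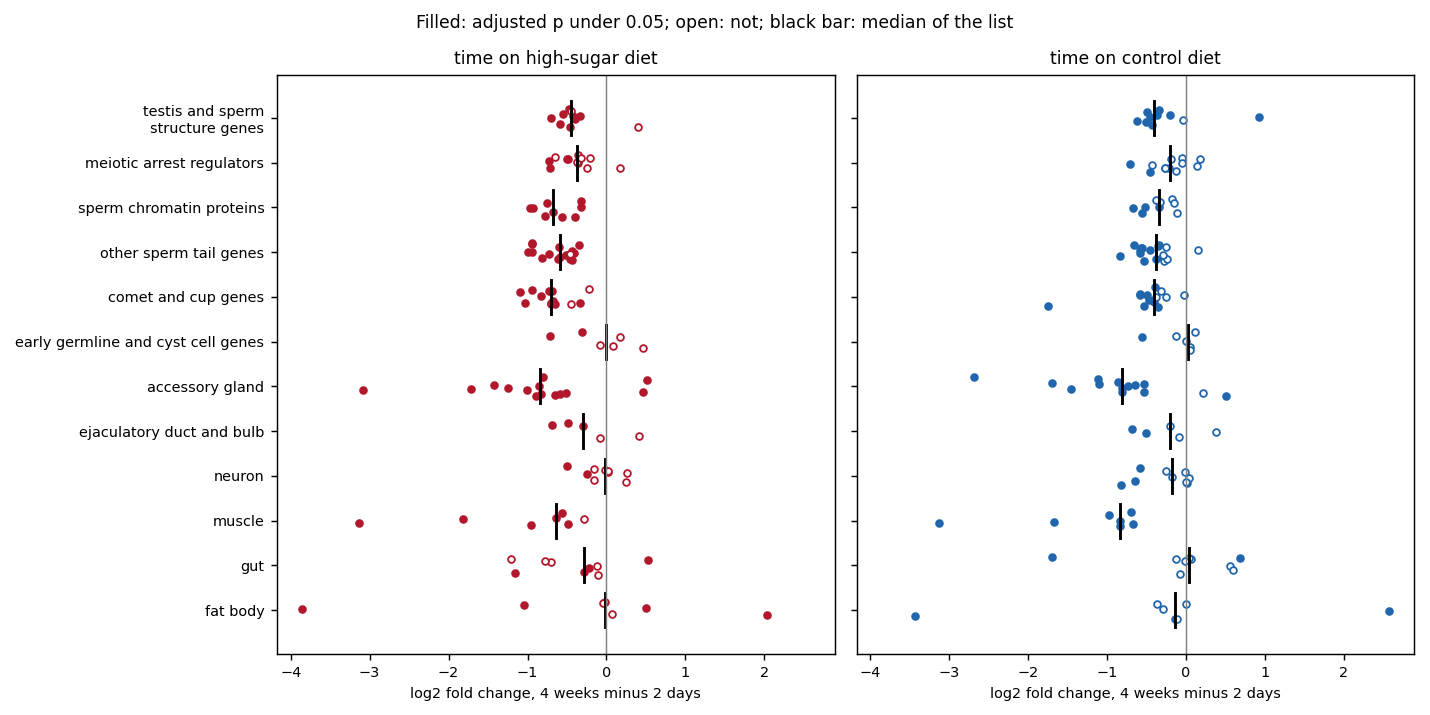
Log2 fold change (4 weeks minus 2 days) of every measured gene in each list, on high-sugar diet (left, red) and control diet (right, blue); filled points passed an adjusted p under 0.05 and black bars are list medians. Most genes of the sperm lists, the accessory gland and muscle lie left of 0, and early germline genes lie around 0.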

How the data were processed

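The authors' deposited intensities, extracted from Affymetrix arrays and normalized between arrays in dChip with its match/mismatch algorithm per the labels' series text, were read for 18869 probe sets on 12 arrays. The labels state neither a baseline array nor detection calls. Values below the pooled 20th percentile (11.78) were raised to it before taking log2. Dropped were 100 control probe sets and the 30% with the lowest mean. Platform annotation gave exactly 1 gene for 13647 probe sets, matched by gene ID, of which 13544 were found in the reference gene table, and the highest-mean probe set stood for a gene, which left 10418 genes. The 4 group means were fitted jointly by lmFit and eBayes with a trend (limma 3.58.1, R 4.3.3). Benjamini-Hochberg adjustment covered all genes, at a threshold of 0.05. The labels call the arrays biological replicates, and their number limits precision. An exact test of 3 against 3 arrays cannot give a p below 0.1, so none was run. The fit was tested on simulated data. Members and lists were chosen with earlier results of these data known. All 10 members are named in every comparison, up to 3 genes per list and direction by adjusted p, and the 8 genes most correlated with the members' mean. Matching replicate numbers were checked: 4 of 18 pairs of arrays had deviations correlated above 0.1, so the numbers were not treated as pairs. Of the listed names, 2 (rye and nos) were not matched to a single gene, and PebII and EbpII are the same gene. Figures used Python 3.11.15, pandas 2.3.3 and matplotlib 3.10.9.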

Additional observations from a re-analysis of the deposited data

How the results depend on the processing

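The alternatives were quantile normalization, centring on array medians, 2 other floors, no filter or a filter at 50% (which removed dj), eBayes without a trend or robust, weights per array, a replicate block, a fit to the compared arrays alone, probe sets averaged per gene and leaving out each array. The members called higher or lower stayed at 0 for diet at 2 days and diet at 4 weeks under all 24 alternatives, and for the difference under the 23 run. The fit to the compared arrays alone was not run for the difference or the averaged effect, which use all 12 arrays. For the averaged diet effect, centring on medians gave 1 lower member. For time on control diet, quantile normalization gave 5 lower members in place of 8, and leaving out an array gave 7 to 8. For time on high-sugar diet leaving out an array gave 8 to 9. mia remained the only higher member on control diet throughout, at an adjusted p of 0.00132 to 0.0268. With the replicate block 8 members were lower on each diet over time and 1 was higher on control diet. Of 36 array and group pairs, 8 had their own number as the best match. Counts over all genes varied more: 1 to 28 lower at 2 days (15 as reported), 28 to 142 higher (84) and 52 to 156 lower (117) at 4 weeks, 39 to 158 higher (93) and 108 to 218 lower (180) for the average, and 809 to 1893 higher (1488) for time on control diet. The difference of diet effects had 0 to 3 higher and 0 to 1 lower genes. The causes of these changes were not tested.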
